A study of Mus musculus with 2 samples.

Results

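The potassium channel genes of the mouse esophagus are described here: the 98 of 32285 annotated genes whose symbols start with Kcn followed by the family letter or letters and a number. The symbol alone chose them. Of the 98, 40 code for pore-forming subunits of voltage-gated (Kv) channels, 15 for inward rectifiers (Kir), 14 for background channels of the K2P family and 12 for calcium- or sodium-activated channels and the beta subunits of the large-conductance channel BK. A further 5 are MinK-related auxiliary subunits, 4 are Kv channel-interacting proteins, 3 are Kv beta subunits and 5 are noncoding RNAs. In the filtered cells, at least 1 molecule was counted for 92 of them in the p63-KO library and for 87 in the wild-type library.

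Epithelium was taken from the esophagus of C57BL/6 mouse embryos at E18.5 and sequenced as single cells, with 1 library for p63-KO (genotype p63-CreER/p63-CreER) and 1 for the control labelled wild type. The control was a littermate of genotype p63-CreER, so it carried the CreER allele too. p63, coded by Trp63, is a transcription factor that stratified epithelia need for their basal cells. The muscle layer had been removed before the cells were dispersed with dispase and trypsin.

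Potassium channels let potassium leave the cell down its gradient and so set the membrane voltage. Kv channels open on depolarization and shape firing in excitable cells, Kir channels pass current best near rest, K2P channels leak at all voltages, and BK opens with calcium and voltage. In secretory epithelia, potassium exit through such channels maintains the voltage that drives chloride out of the cell, and neuroendocrine cells, which release hormones on depolarization, use many of the same channels as neurons.

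The p63-KO library held 2821 barcodes with 86504624 unique molecules (UMIs) and the wild-type library 6034 barcodes with 76472445 UMIs, of which 2375 and 5519 cells were kept, with medians of 19307 UMIs in p63-KO and 10924 UMIs in wild type. The libraries shared 8 barcodes. Levels are UMIs summed over a class of cells and given as CPM, counts per 1000000 UMIs of that class. They come from the 3′ ends of transcripts and were not divided by length. Trp63 itself was counted at 118 CPM in p63-KO and 301 CPM in wild-type epithelial-like cells. Where in Trp63 the allele lies is not stated in the labels. Of the filtered p63-KO cells, 1677 were epithelial-like, and 517 fibroblast-like, 74 smooth muscle or pericyte-like, 72 endothelial-like and 18 immune-like cells stood beside them, although the label names epithelium. In wild type, 5364 cells were epithelial-like and 10 fibroblast-like. With 1 library per genotype no difference could be tested against the spread between animals, and all intervals are 95% intervals that cover counting error only. A gene was taken as measured in a comparison from 5 CPM in either group, and as higher or lower past a 2-fold ratio.

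The windows below, 250 bases before to 50 bases after the transcription start given by RefSeq on GRCm38.p6, belong to a gene highest in wild-type basal-like cells, to another basal-like gene, to the BK pore gene that was highest in ionocyte-like cells, and to a neuroendocrine-like gene. RefSeq windows were matched for 71 of the 98 genes. Capitals mark the spaced motif CNNGNNNNNNCNNG, the half-site pair that p53-family factors such as p63 are known to bind, searched on both strands, which give the same matches because the motif is its own reverse complement.
Kcnq5 (chr1:21961893-21962192, minus strand): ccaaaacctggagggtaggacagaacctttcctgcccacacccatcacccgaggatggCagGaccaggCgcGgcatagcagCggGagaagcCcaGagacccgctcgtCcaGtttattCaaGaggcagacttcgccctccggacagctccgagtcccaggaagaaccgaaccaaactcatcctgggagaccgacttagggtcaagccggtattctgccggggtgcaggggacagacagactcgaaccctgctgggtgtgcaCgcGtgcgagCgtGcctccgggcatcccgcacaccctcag
Kcnh1 (chr1:192190527-192190826, plus strand): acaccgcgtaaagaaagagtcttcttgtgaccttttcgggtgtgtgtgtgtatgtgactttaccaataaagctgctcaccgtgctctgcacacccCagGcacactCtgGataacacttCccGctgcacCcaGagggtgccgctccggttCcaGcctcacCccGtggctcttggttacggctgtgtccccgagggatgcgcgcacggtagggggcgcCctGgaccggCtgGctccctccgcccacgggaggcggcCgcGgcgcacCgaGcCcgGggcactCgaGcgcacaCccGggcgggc
Kcnma1 (chr14:24004156-24004455, minus strand): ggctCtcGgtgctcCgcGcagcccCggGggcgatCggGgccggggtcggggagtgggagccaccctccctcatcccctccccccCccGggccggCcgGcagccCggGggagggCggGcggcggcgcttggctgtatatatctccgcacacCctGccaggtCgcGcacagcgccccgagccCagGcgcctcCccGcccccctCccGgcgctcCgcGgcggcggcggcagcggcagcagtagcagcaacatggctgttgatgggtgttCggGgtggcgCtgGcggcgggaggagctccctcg
Kcnh8 (chr17:52602459-52602758, plus strand): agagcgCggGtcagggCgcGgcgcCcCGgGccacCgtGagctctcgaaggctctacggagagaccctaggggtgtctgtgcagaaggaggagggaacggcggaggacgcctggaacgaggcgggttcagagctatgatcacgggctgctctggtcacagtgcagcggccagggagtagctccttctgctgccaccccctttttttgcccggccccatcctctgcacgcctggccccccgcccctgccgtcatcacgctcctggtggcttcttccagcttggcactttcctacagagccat
The motif was found 4 times in the Kcnq5 window, 7 times in that of Kcnh1, 9 times in that of Kcnma1 and 3 times in that of Kcnh8, where matches can overlap. It is common: 70.2% of all 32851 windows held it, against 78 of the 96 windows of potassium channel genes. The E-box CAGCTG, which is palindromic too, was in none of these 4 windows, in 24 of the 96 and in 16.3% of all windows. The Kcnma1 window lies 10286 bases from the start of the gene in the GENCODE annotation, whereas those of Kcnq5 and Kcnh8 match it.

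Of 43 genes that reached 20 CPM and 20 UMIs in some class, 20 were highest in the neuroendocrine-like cells of p63-KO. Another 6 were highest in smooth muscle or pericyte-like cells, 4 in fibroblast-like cells and 4 in ionocyte-like cells, all of p63-KO, and 3 in the ciliated-like cells of wild type. Kcnq5 was highest in wild-type basal-like cells of subclusters without a cycle label, called not cycling here. Kcnh1 was highest in basal-like cells of subclusters labelled S phase and Kcnj15 in suprabasal-like cells. Cycle labels were given to whole subclusters by their markers. The number of genes at 20 CPM or more was 33 in p63-KO neuroendocrine-like cells and 10 in p63-KO ionocyte-like cells, and 5 in each of the wild-type basal-like, suprabasal-like and superficial squamous-like classes. Neither count was made over all genes, and a gene entered the 43 through the class where it was high. Of all measured genes, 23.6% were higher by 2-fold in neuroendocrine-like than in other p63-KO epithelial-like cells. Summed over the coding members, the level was 6535 CPM in ionocyte-like, 5810 CPM in neuroendocrine-like, 1992 CPM in mucous-like and 1531 CPM in simple columnar-like cells of p63-KO, and 2242 CPM in basal-like, 1096 CPM in suprabasal-like and 390 CPM in superficial squamous-like cells of wild type. One gene carried 87.0% of the ionocyte-like sum, Kcnma1, while the highest gene of the neuroendocrine-like sum, Kcnb2, carried 25.7%. Kcnma1 also led the sums of p63-KO mucous-like (67.5%), simple columnar-like (62.5%) and ciliated-like cells (54.5%) and of wild-type superficial squamous-like cells (51.2%). In wild-type basal-like cells Kcnq5 carried 84.3%. These shares set genes of unlike length side by side and were not corrected for it. No UMI of Kcnk15, Kcna3 or Kcna10 was counted in any class.

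**Figure D1:**
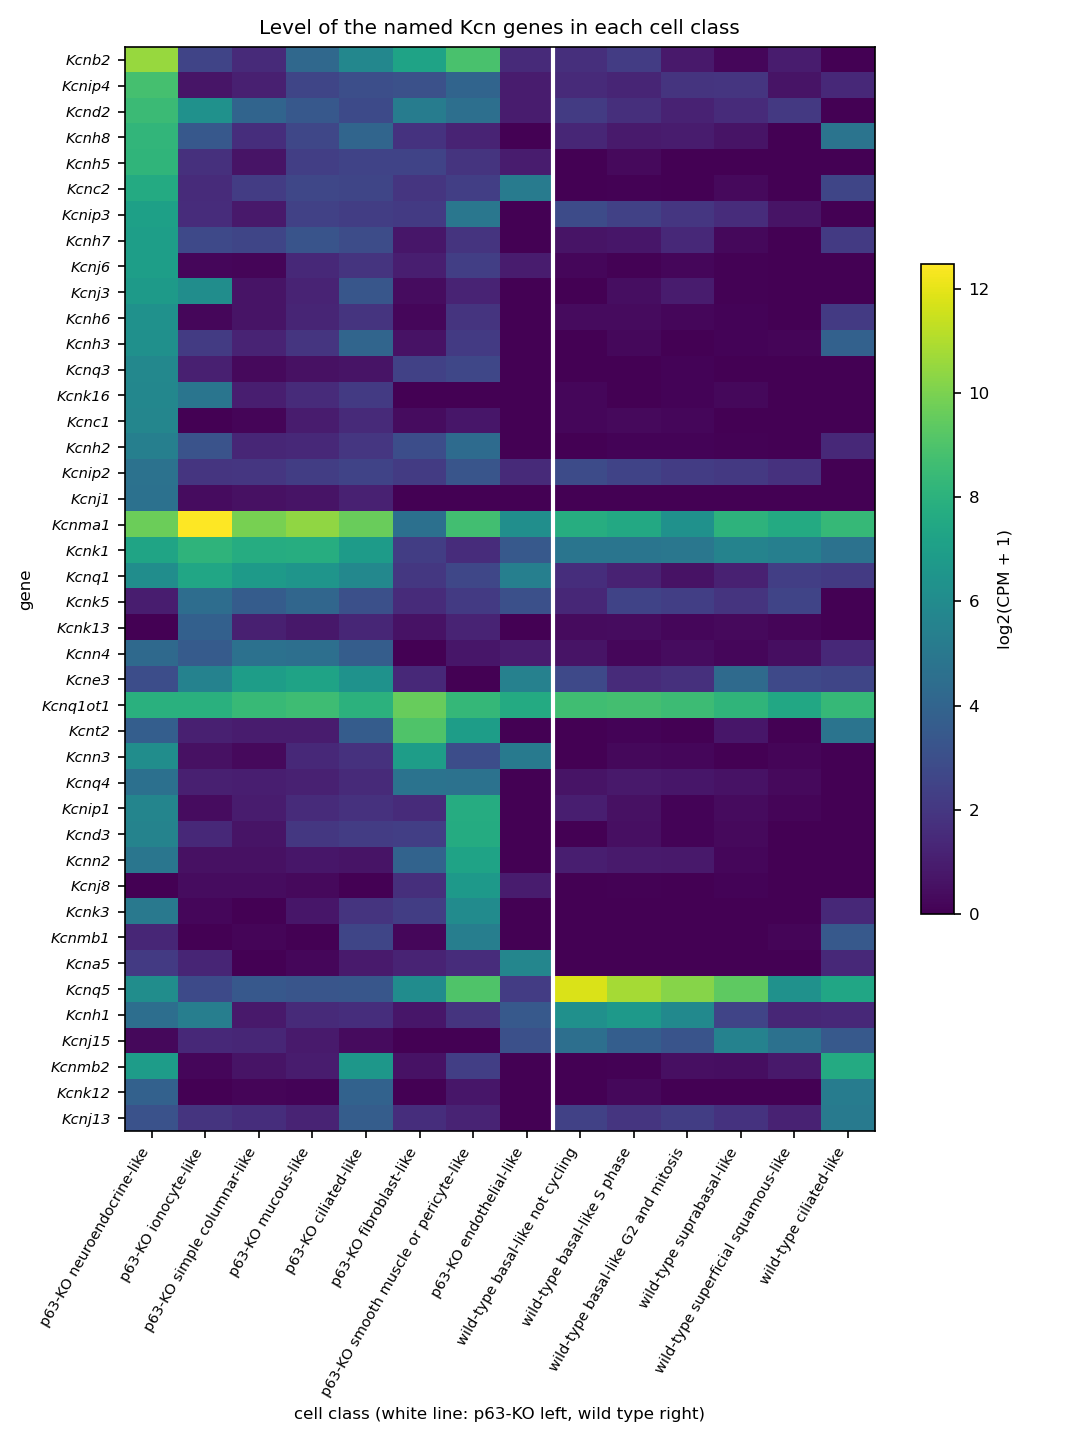
Level of 42 Kcn genes (rows) in 14 cell classes (columns, p63-KO left and wild type right of the white line), as log2(CPM + 1). The block at the upper left holds the genes highest in neuroendocrine-like cells, and Kcnq5 is the brightest row on the wild-type side, at 3438 CPM in basal-like cells that were not cycling.

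The first comparison asked how the channels of the p63-KO epithelium differ from those of the wild-type epithelium. Kcnq5 was the channel gene with the highest level in the wild-type epithelium and was far lower in p63-KO, while Kcnma1, Kcnk1, Kcnq1 with its partner Kcne3, and Kcnn4 were higher in p63-KO. Of the 98 genes, 32 were measured, 24 of them higher and 4 lower in p63-KO. Among all 11770 measured genes, 15.1% were higher and 8.83% lower. The median log2 ratio of the measured channel genes was 2.63, beside -0.02 over all genes. Since 23 of the 32 reached 5 CPM only in p63-KO and 2 only in wild type, the count leans on the side where a gene was high.

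Kcnq5 codes for a subunit of the slowly activating M-type channels that damp excitability, and its gene lies at chr1:21398403-21961942 on the minus strand (mm10). Its level was 14.8 CPM in p63-KO, from 1065 UMIs, and 1290 CPM in wild-type epithelial-like cells, 87.4-fold lower in p63-KO (82.2 to 92.9). A Kcnq5 UMI was seen in 15.3% of p63-KO cells and 83.8% of wild-type cells. After each cell was thinned to 2000 UMIs these shares were 2.60% (1.89 to 3.49) in p63-KO and 67.8% (66.5 to 69.1) in wild type. Within the p63-KO epithelium the level was 9.91 CPM in simple columnar-like, 8.75 CPM in mucous-like, 5.99 CPM in ionocyte-like and 67.7 CPM in neuroendocrine-like cells. Outside the epithelium of that library it was 66.9 CPM in fibroblast-like, 532 CPM in smooth muscle or pericyte-like and 3.67 CPM in endothelial-like cells.

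Kcnh1, the founding ether-a-go-go Kv channel, and Kcnj15, an inward rectifier, were lower as well. Kcnh1 was at 6.23 CPM in p63-KO and 52.2 CPM in wild type, 8.38-fold lower in p63-KO, and most of what was left lay in ionocyte-like cells at 39.1 CPM and neuroendocrine-like cells at 22.0 CPM. Kcnj15 was at 0.749 CPM in p63-KO and 23.8 CPM in wild type, 31.8-fold lower in p63-KO. The remaining lower gene was Kcnv1, a silent Kv subunit that modifies other channels, at 0.139 CPM in p63-KO and 5.26 CPM in wild type. It stands outside the rule that chose the genes to name and is given here because it completes the count.

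Genes higher in p63-KO fell into those spread over the epithelium and those of rare cell classes. Kcnma1, the pore of BK, was at 1471 CPM in p63-KO and 199 CPM in wild type (7.41-fold higher, 7.28 to 7.54), and its level in p63-KO fibroblast-like cells was 23.1 CPM. Kcnk1, a K2P channel, was at 204 CPM in p63-KO and 35.3 CPM in wild type (5.78-fold higher, 5.54 to 6.04). Both were found in every epithelial-like class of p63-KO: Kcnk1 lay between 116 CPM in ciliated-like and 275 CPM in ionocyte-like cells, against 3.82 CPM in fibroblast-like cells.

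Kcnq1 and Kcne3 together form a channel that stays open at rest and, in the intestine and airway, supports chloride secretion. Kcnq1 was at 100.2 CPM in p63-KO and 1.62 CPM in wild type, 62.0-fold higher (51.4 to 75.5). Kcne3 was 12.6-fold higher in p63-KO (11.6 to 13.8), against 7.91 CPM in wild type. Both were high in simple columnar-like cells, at 110 CPM for Kcnq1 and 122 CPM for Kcne3, and in mucous-like cells, at 91.2 CPM for Kcnq1 and 149 CPM for Kcne3. They parted in the rare classes, where ionocyte-like cells had 167 CPM of Kcnq1 with 45.7 CPM of Kcne3, and neuroendocrine-like cells 68.5 CPM of Kcnq1 with 6.81 CPM of Kcne3. Kcnn4, the intermediate-conductance calcium-activated channel, was at 20.9 CPM in p63-KO and 0.262 CPM in wild type (79.6-fold higher, 50.2 to 135). Kcnk5, an acid-sensitive K2P channel, was at 12.7 CPM in p63-KO and 3.65 CPM in wild type, and was highest at 21.0 CPM in ionocyte-like cells.

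With the neuroendocrine-like, ionocyte-like and ciliated-like cells left out of both libraries, 17 genes were measured, with 11 higher and 4 lower in p63-KO, beside 12.3% higher and 10.9% lower among all measured genes. Kcnma1 then stood at 1102 CPM in p63-KO and 197 CPM in wild type, Kcnq1 at 98.2 CPM in p63-KO and 1.60 CPM in wild type, and Kcne3 at 115 CPM in p63-KO and 7.94 CPM in wild type. For Kcnb2 the p63-KO level was 121 CPM over all epithelial-like cells and 14.6 CPM without these classes, beside 1.62 CPM over all wild-type epithelial-like cells. The neuroendocrine marker Chga was at 559 CPM in neuroendocrine-like and 5.95 CPM in mucous-like cells of p63-KO. How much of such low levels was RNA set free by other cells was not tested. Kcnip4 was at 3.04 CPM in p63-KO and 2.06 CPM in wild type without these classes, and Kcnip3 at 2.69 CPM in p63-KO and 3.09 CPM in wild type. Kcnq5 and Kcnh1 stood further apart, 115-fold and 37.2-fold lower in p63-KO.

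**Figure D2:**
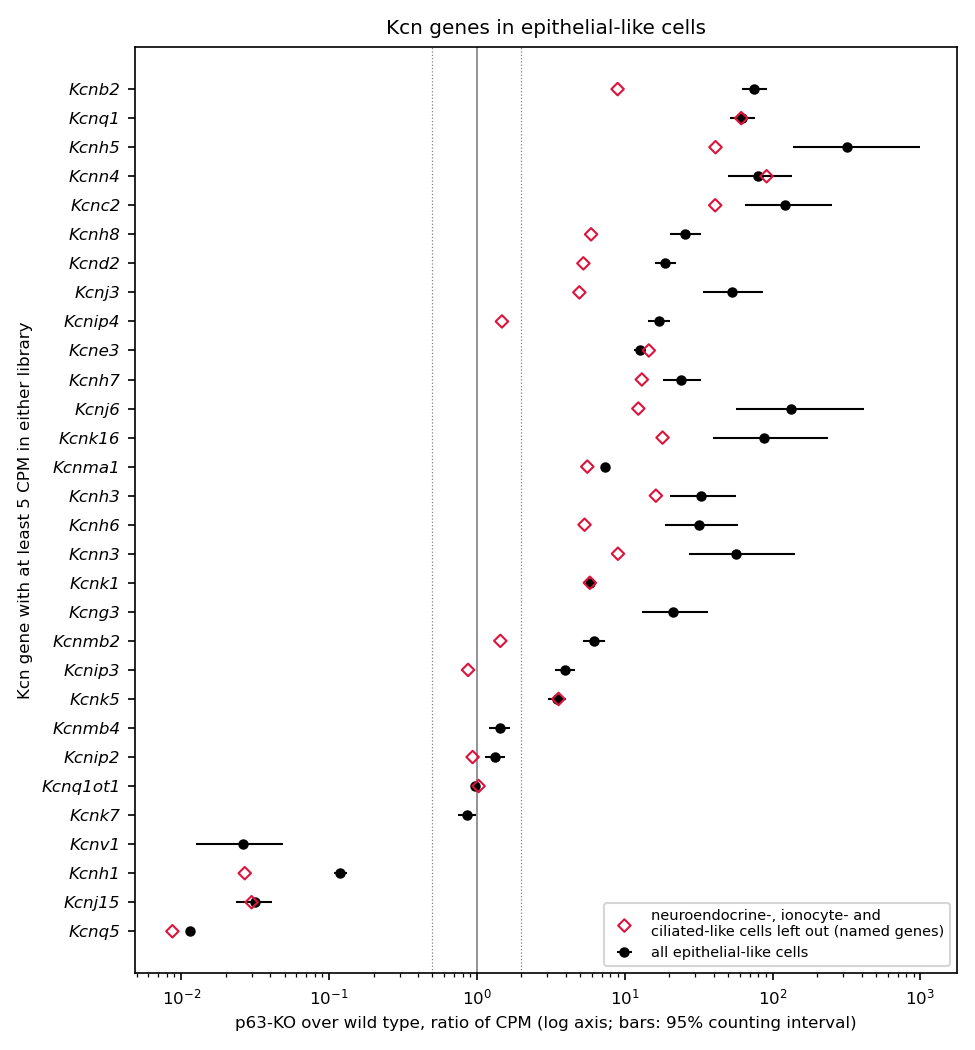
Ratio of CPM, p63-KO over wild type, on a log axis for 30 of the 32 Kcn genes with at least 5 CPM in either library (black points with 95% counting intervals), ordered by log2 ratio of CPM + 1, and for the named genes again with 3 rare classes left out (red diamonds). The diamonds of Kcnq1, Kcnk1, Kcnn4 and Kcne3 stay near their points, whereas those of Kcnb2, Kcnip4, Kcnip3 and Kcnmb2 move left, Kcnip3 to below 1.

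The noncoding RNA Kcnq1ot1, which is imprinted and runs antisense inside Kcnq1 (chr7:143203458-143296549, minus strand), was at 331 CPM in p63-KO and 343 CPM in wild type, within 2-fold. How reads on opposite strands of Kcnq1 and Kcnq1ot1 were assigned is not given in the sources used here. Kcnq1 and Kcnq1ot1 did not run in parallel across classes, since p63-KO fibroblast-like cells had 749 CPM of Kcnq1ot1 and 3.13 CPM of Kcnq1.

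The second comparison followed the wild-type epithelium from its basal-like to its superficial squamous-like cells. At the limit of 5 CPM only 9 of the 98 genes were measured in either contrast, and less abundant genes are not covered. With a limit of 1 CPM more genes were lower in both contrasts, as given in the last section. Kcnq5 and Kcnh1 were lower outside the basal-like class. Kcne3 and Kcnj15 were highest in suprabasal-like cells. In superficial squamous-like over basal-like cells 1 gene was higher and 5 were lower, where 13.4% of all measured genes were higher and 34.3% lower. In suprabasal-like over basal-like cells 2 were higher and 2 lower, against 9.93% higher and 16.7% lower among all measured genes. The median log2 ratio of all genes was -0.55 for the superficial contrast, or -0.35 with the 50 most abundant genes of either group left out of the totals, and -0.26 for the suprabasal contrast, so small negative ratios are to be read against that shift.

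Kcnq5 stood at 3438 CPM (3394 to 3483) in basal-like cells that were not cycling, 1044 CPM (1023 to 1064) in the Krtdap-led suprabasal-like subcluster, 266 CPM (256 to 277) in the Serpinb3a-led one and 79.4 CPM (73.4 to 85.6) in superficial squamous-like cells. The intervals did not overlap between neighbouring layers. Among basal-like cells it was lower in those of subclusters with a cycle label, at 1784 CPM for S phase and 1171 CPM for G2 and mitosis. Of the 1923 cells labelled S phase, 1400 formed a subcluster led by Hs3st5, Kcnh1 and Nkain3. With Kcn genes among the variable genes, the subcluster led by Kcnh1 and Hs3st5 (1481 cells) had no cycle label. The S phase label thus depended on the clustering settings. Kcnq5 differed between the 2 G2 and mitosis subclusters, at 587 CPM and 1527 CPM. Against all basal-like cells, superficial squamous-like cells were 23.8-fold lower (22.1 to 25.7) and suprabasal-like cells 2.87-fold lower (2.81 to 2.92).

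Kcnh1 was at 108 CPM in basal-like cells labelled S phase, 76.3 CPM in those that were not cycling and 59.1 CPM in those labelled G2 and mitosis. It was at 4.95 CPM in suprabasal-like and 1.55 CPM in superficial squamous-like cells. The ratio was 17.8-fold lower (14.5 to 22.0) in suprabasal-like than in basal-like cells and 56.8-fold lower (33.2 to 107) in superficial squamous-like than in basal-like cells. Both genes were lower in suprabasal-like than in basal-like cells and lower again in superficial squamous-like cells.

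Kcnj15 was at 45.4 CPM in suprabasal-like and 12.9 CPM in basal-like cells (3.52-fold higher, 3.15 to 3.93), and at 23.8 CPM in superficial squamous-like cells. Kcne3 was at 19.0 CPM in suprabasal-like and 2.69 CPM in basal-like cells (7.06-fold higher, 5.67 to 8.87), with 28.4 CPM in the Krtdap-led and 9.38 CPM in the Serpinb3a-led subcluster. This log2 ratio ranged from 1.43 to 3.16 over 13 alternative settings and was called in 12. Kcne3 was 2.13-fold higher in superficial squamous-like cells, at 5.71 CPM, than in basal-like cells. It did not differ there when the basal-like subclusters with a cycle label were left out (log2 ratio -0.02). Kcnma1 and Kcnk1 stayed within 2-fold in both contrasts: Kcnma1 was at 200 CPM in superficial squamous-like, 270 CPM in suprabasal-like and 158 CPM in basal-like cells, and Kcnk1 at 40.7 CPM in superficial squamous-like, 46.1 CPM in suprabasal-like and 28.5 CPM in basal-like cells. Kcnq1ot1 was at 178 CPM in superficial squamous-like and 405 CPM in basal-like cells, 2.27-fold lower. The remaining lower genes were Kcnv1 and Kcnk7, each under 6 CPM in basal-like cells.

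**Figure D3:**
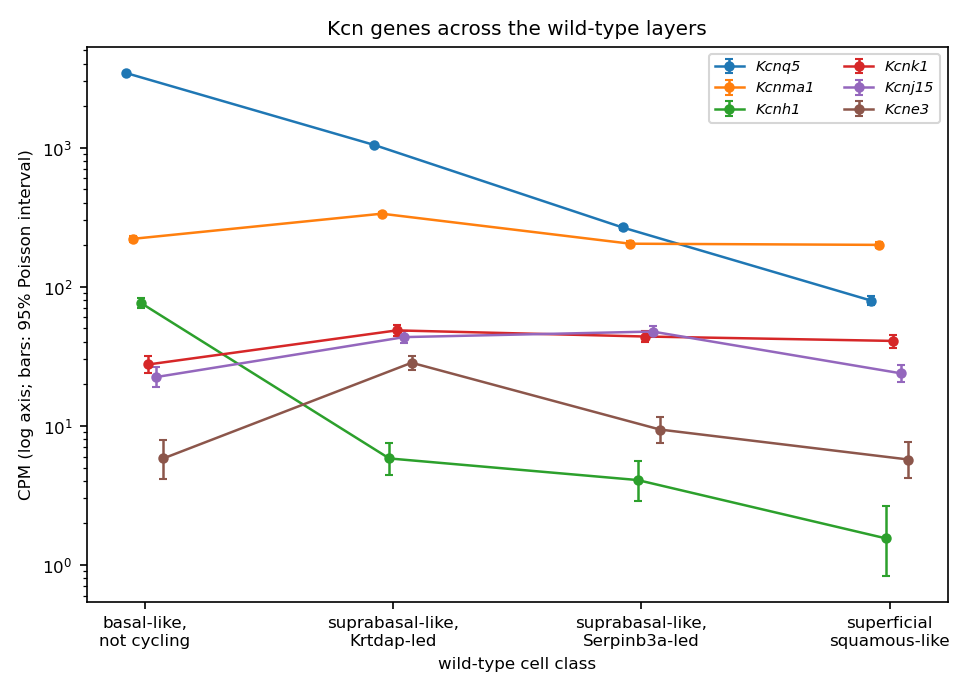
CPM (log axis, 95% Poisson intervals) of 6 Kcn genes in 4 wild-type cell classes from basal-like cells that were not cycling to superficial squamous-like cells. Kcnq5 lies at 3438 CPM on the left and 79.4 CPM on the right, Kcnh1 is at 5.81 CPM already in the first suprabasal-like class, and Kcne3 and Kcnj15 have their highest points in the suprabasal-like classes.

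The third comparison set the 346 neuroendocrine-like cells of p63-KO against its 1331 other epithelial-like cells. The Kcn genes were left out of the clustering that defined these cells. Kv channel genes of the Kcnb, Kcnc, Kcnd, Kcnh and Kcnq subfamilies, their interacting proteins, G-protein-gated and ATP-sensitive inward rectifiers and small-conductance calcium-activated channels were higher there. Of the 98 genes, 49 were measured, with 40 higher and 3 lower, where 23.6% of all measured genes were higher and 15.4% lower. The median log2 ratio was 3.50 for the measured channel genes and 0.16 for all genes. By family, 18 of 20 measured Kv pore subunits were higher, as were 6 of 6 inward rectifiers, 4 of 4 Kv channel-interacting proteins, 6 of 8 calcium- or sodium-activated genes and 5 of 8 K2P genes. Of the 49, 31 reached 5 CPM only in the neuroendocrine-like cells.

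Kcnb2, a delayed rectifier, was the most abundant of them, at 1496 CPM in neuroendocrine-like and 15.6 CPM in other epithelial-like cells, 95.7-fold higher (89.7 to 102). It was found in 72.9% of neuroendocrine-like cells thinned to 2000 UMIs and in 0 of the simple columnar-like cells so thinned, with 18.8% in p63-KO fibroblast-like cells, which had 152 CPM. Its gene lies at chr1:15287254-15723750 on the plus strand. Kcnd2 carries the fast inactivating A-type current and was at 357 CPM in neuroendocrine-like and 17.8 CPM in other cells (20.1-fold higher, 18.7 to 21.6). Its partner Kcnip4 was at 449 CPM in neuroendocrine-like cells, 150-fold higher than in other cells (130 to 174). The related Kcnip3 was at 133 CPM in neuroendocrine-like and 2.69 CPM in other cells, and Kcnip1 at 50.2 CPM in neuroendocrine-like and 1.22 CPM in other cells.

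The ether-a-go-go group, Kv channels that differ widely in how fast they open, was represented by 7 measured genes, all higher. Kcnh8 was at 296 CPM in neuroendocrine-like and 5.79 CPM in other cells (51.1-fold higher, 45.6 to 57.2). Kcnh5 was at 288 CPM in neuroendocrine-like and 3.05 CPM in other cells (94.4-fold higher, 81.5 to 110). The erg-type genes Kcnh7, Kcnh6 and Kcnh2, whose channels repolarize the heart and other excitable cells, were at 127, 78.4 and 41.2 CPM in neuroendocrine-like cells, against 8.42, 0.956 and 2.06 CPM in other cells. Kcnh3 was at 74.9 CPM in neuroendocrine-like and 2.96 CPM in other cells. Fast-spiking Kv subunits showed the same direction, with Kcnc2 at 193 CPM in neuroendocrine-like and 4.03 CPM in other cells and Kcnc1 at 51.9 CPM in neuroendocrine-like and 0.567 CPM in other cells.

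Among the inward rectifiers, Kcnj6 and Kcnj3, which assemble into channels opened by G proteins, were at 124 and 109 CPM in neuroendocrine-like cells, against 0.926 and 8.17 CPM in other cells. Kcnj1, best known from the kidney tubule, was at 23.9 CPM in neuroendocrine-like and 0.358 CPM in other cells. Kcnmb2, a beta subunit that inactivates BK, was at 118 CPM in neuroendocrine-like and 5.47 CPM in other cells, of which ciliated-like cells had 97.0 CPM. The small-conductance calcium-activated channels Kcnn3 and Kcnn2 were at 68.5 and 29.0 CPM in neuroendocrine-like cells, against 0.956 and 0.642 CPM in other cells. Of the K2P genes, Kcnk16, known from pancreatic islets, was at 53.1 CPM in neuroendocrine-like and 4.12 CPM in other cells, and Kcnk3, an acid-sensitive channel, at 32.1 CPM in neuroendocrine-like and 0.567 CPM in other cells. The 3 lower genes were Kcne3, at 6.81 CPM in neuroendocrine-like and 107 CPM in other cells, Kcnk5, at 0.972 CPM in neuroendocrine-like and 13.6 CPM in other cells, and Kcng3. Kcnma1, Kcnq1, Kcnk1 and Kcnn4 stayed within 2-fold, with Kcnma1 at 829 CPM in neuroendocrine-like and 1520 CPM in other cells.

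The neuroendocrine-like cells formed 3 subclusters that differed in their channels. The largest, 199 cells led by Car10 and Chga, had the highest Kcnb2 at 2116 CPM, Kcnh5 at 435 CPM and Kcnc2 at 327 CPM. The 87 cells of the Dll3-expressing subcluster had 490 CPM of Kcnb2, 157 CPM of Kcnh5 and 9.88 CPM of Kcnc2, with more of the genes that were spread over the rest of the epithelium: Kcnma1 at 1560 CPM, Kcnk1 at 269 CPM, Kcnq1 at 212 CPM and Kcnn4 at 54.0 CPM. The 60 cells led by Pyy and Sst had 525 CPM of Kcnmb2, beside 64.9 CPM in the Car10-led and 5.27 CPM in the Dll3-expressing subcluster, and had 103 CPM of Kcnk3 and 43.2 CPM of Kcnj11. Kcnj11, Kcng3 and, further on, Abcc9 lie outside the rule for named genes and were chosen after their values were seen. Kcnq1 was at 1.27 CPM in the Pyy-led and 10.2 CPM in the Car10-led subcluster. Kcnh8, in contrast, was at 275, 366 and 238 CPM in the Car10-led, Dll3-expressing and Pyy-led subclusters.

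**Figure D4:**
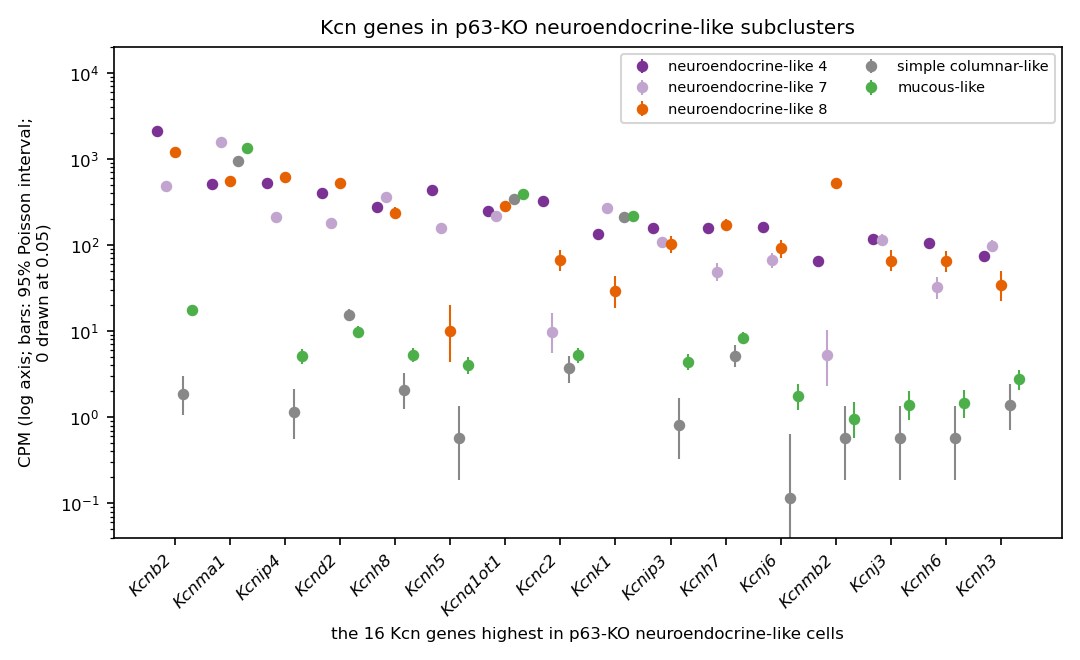
CPM (log axis, 95% Poisson intervals) of the 16 Kcn genes highest in p63-KO neuroendocrine-like cells, in their 3 subclusters (4, Car10-led; 7, Dll3-expressing; 8, Pyy-led) and in simple columnar-like and mucous-like cells. Kcnb2, Kcnip4, Kcnh8 and most others lie far above both other classes, while Kcnma1, Kcnk1 and Kcnq1ot1 do not.

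The last comparison concerned the 155 ionocyte-like cells of p63-KO, against 1522 other epithelial-like cells. Ionocytes are rare cells of airway and other epithelia that express the transcription factor Foxi1, the chloride channel Cftr and proton pumps. BK was their leading channel gene, as in simple columnar-like, mucous-like and ciliated-like cells of p63-KO. Kcnma1 was at 5688 CPM in ionocyte-like and 1064 CPM in other cells (5.34-fold higher, 5.28 to 5.41). A Kcnma1 UMI was seen in 100% of the ionocyte-like cells even after thinning. Of the 98 genes, 34 were measured, with 6 higher and 20 lower, where 5.65% of all measured genes were higher and 6.79% lower. Of the 34, 17 reached 5 CPM only in the other cells and 3 only in the ionocyte-like cells. The median log2 ratio was -1.14 for the measured channel genes and -0.01 for all genes. With the neuroendocrine-like cells left out of the cells compared, 8 were higher and 6 lower of 21 measured, beside 7.11% higher and 4.91% lower among all measured genes, and the median of the measured channel genes was then 0.67.

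Besides Kcnma1, the higher genes were Kcnj3, Kcnh1, Kcnk13, Kcnk16 and Kcnd2. Kcnj3 was at 68.4 CPM in ionocyte-like and 10.3 CPM in other cells (6.66-fold higher, 5.89 to 7.53), where simple columnar-like cells had 0.576 CPM and mucous-like cells 1.40 CPM. Kcnj6, which pairs with it in neurons, was at 0.158 CPM in ionocyte-like cells, from 1 UMI, against 124 CPM in neuroendocrine-like cells. Kcnh1 was at 39.1 CPM in ionocyte-like and 3.06 CPM in other cells (12.8-fold higher, 10.6 to 15.5). Kcnk13, a K2P channel known from microglia, was at 13.1 CPM in ionocyte-like and 0.730 CPM in other cells (17.9-fold higher, 12.4 to 26.1). No Kcnk13 UMI was counted in neuroendocrine-like cells.

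Kcnk16 was at 27.4 CPM in ionocyte-like and 5.70 CPM in other cells, and Kcnd2 at 77.8 CPM in ionocyte-like and 38.5 CPM in other cells, barely past 2-fold at 2.02-fold (1.83 to 2.23). Without the neuroendocrine-like cells the other cells had 11.5 CPM of Kcnd2, and with every cell weighing equally the levels were 97.0 CPM in ionocyte-like and 95.5 CPM in other cells. After thinning to 2000 UMIs per cell neither was higher, with Kcnd2 at 97.4 CPM in ionocyte-like and 98.4 CPM in other cells, and a log2 ratio of -0.10 for Kcnk16. Kcnk1 at 275 CPM in ionocyte-like and 197 CPM in other cells, Kcnq1 at 167 CPM in ionocyte-like and 93.8 CPM in other cells, and Kcnk5 at 21.0 CPM in ionocyte-like and 11.9 CPM in other cells stayed within 2-fold. Kcne3 was lower, at 45.7 CPM in ionocyte-like and 105 CPM in other cells (2.30-fold lower, 2.05 to 2.60), and Kcnn4 was 2.01-fold lower (1.58 to 2.60), at 10.9 CPM in ionocyte-like and 21.9 CPM in other cells, a call kept in 10 of 14 alternative settings.

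The ionocyte-like cells formed 2 subclusters. One held 102 cells with a median of 23521.5 UMIs, and the other 53 cells with a median of 68252 UMIs. The first was labelled G2 and mitosis by its markers, and the second had no cycle label. The second had 469 CPM of the mucous-cell gene Agr2, beside 20.1 CPM in the first, and 194 CPM of Foxi1, beside 775 CPM in the first. Kcnma1 was at 8486 CPM in the first and 3764 CPM in the second, and Kcnj3 at 118 CPM in the first and 34.3 CPM in the second. The channels of the simple columnar-like and mucous-like cells ran the other way, with Kcne3 at 4.64 CPM in the first and 73.9 CPM in the second, and Kcnn4 at 1.16 CPM in the first and 17.5 CPM in the second. With the second subcluster left out, Kcnd2 was 2.97-fold and Kcnk16 7.94-fold higher in ionocyte-like cells than in other epithelial-like cells. Whether cells of the second subcluster are doublets was not tested beyond the removal of the highest doublet scores in each library.

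**Figure D5:**
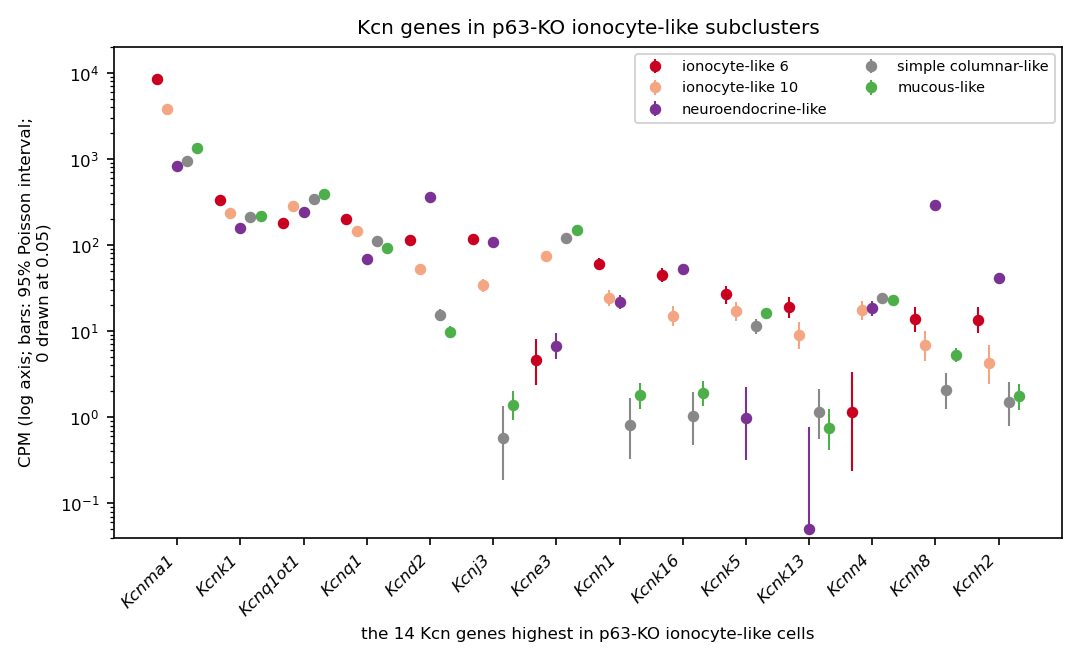
CPM (log axis, 95% Poisson intervals) of 14 of the Kcn genes highest in p63-KO ionocyte-like cells, in their subclusters (6, 102 cells; 10, 53 cells) and in neuroendocrine-like, simple columnar-like and mucous-like cells. Kcnma1 is at 8486 CPM in the first subcluster, where Kcnj3 and Kcnk16 are near the neuroendocrine-like level. Kcnj3 is lower in the second, and Kcne3 differs between the subclusters.

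The genes that act with these channels were taken from 4 lists. Of 13 channel partners outside the Kcn names, 4 were measured in p63-KO over wild-type epithelial-like cells, and all 4 were higher, beside 15.1% of all measured genes. Lrrc26, an auxiliary subunit that lets BK open at resting voltage and low calcium in secretory cells, was at 329 CPM in p63-KO and 91.9 CPM in wild type (3.58-fold higher). In wild type it followed the layers, at 321 CPM in superficial squamous-like and 4.65 CPM in basal-like cells, while Kcnma1 itself stayed within 2-fold between them. In p63-KO, Lrrc26 was at 424 CPM in simple columnar-like, 383 CPM in mucous-like and 173 CPM in ionocyte-like cells, so the ionocyte-like cells with the highest Kcnma1 did not have the highest Lrrc26. In neuroendocrine-like cells it was at 31.9 CPM, 11.0-fold lower than in other epithelial-like cells. Dpp6, an auxiliary subunit of A-type channels, was at 325 CPM in neuroendocrine-like and 4.82 CPM in other cells (67.3-fold higher), as were its channel Kcnd2 and its co-subunit Kcnip4.

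Abcc8 codes for the sulfonylurea receptor that pairs with Kcnj11 in the ATP-sensitive channel of pancreatic beta cells. It was at 362 CPM in the Pyy-led subcluster, which also had the highest Kcnj11 of the 3 at 43.2 CPM, and at 51.5 and 1.32 CPM in the Car10-led and Dll3-expressing subclusters, which had 17.6 and 1.32 CPM of Kcnj11. The other ATP-sensitive pair, Kcnj8 with Abcc9, is known from vascular smooth muscle and pericytes, and its genes were at 106 and 324 CPM in the smooth muscle or pericyte-like cells of p63-KO. Over all p63-KO epithelial-like cells Kcnj8 was at 0.194 CPM.

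Of 31 voltage-gated sodium and calcium channel genes, 20 were measured in neuroendocrine-like over other epithelial-like cells and all 20 were higher, with a median log2 ratio of 4.01, beside 23.6% of all measured genes higher and a median of 0.16. Cacna2d1, a calcium channel subunit, was at 2281 CPM in neuroendocrine-like and 32.0 CPM in other cells, and Scn9a, a sodium channel, at 200 CPM in neuroendocrine-like and 1.33 CPM in other cells. In ionocyte-like cells 1 of 12 measured genes of this list was higher and 6 were lower, beside 5.65% higher and 6.79% lower among all measured genes. The cells they were compared with included the neuroendocrine-like cells. In wild type, the calcium channel subunit Cacnb2 was at 8.69 CPM in superficial squamous-like and 236 CPM in basal-like cells, 27.2-fold lower, the same direction as Kcnq5.

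Of 22 sodium pump and potassium cotransport genes, 10 were measured in p63-KO over wild type, with 5 higher and 1 lower, beside 15.1% higher and 8.83% lower among all measured genes. Slc12a2, which loads chloride with sodium and potassium and whose potassium is recycled by channels, was at 684 CPM in p63-KO and 98.3 CPM in wild type (6.96-fold higher). It was at 2622 CPM in ionocyte-like and 497 CPM in other epithelial-like cells, 5.27-fold higher, beside the 5.34-fold of Kcnma1. In wild type it was at 427 CPM in superficial squamous-like and 41.7 CPM in basal-like cells. Slc12a4, a potassium-chloride exporter, was lower, at 2.69 CPM in p63-KO and 17.8 CPM in wild type. Of 21 chloride channel genes, 5 of 13 measured were higher in p63-KO and none lower, beside the same shares of all genes, among them Ano1, a calcium-activated chloride channel, at 51.9 CPM in p63-KO and 10.2 CPM in wild type. Cftr and Bsnd helped to name the ionocyte-like cells and are no results there.

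In p63-KO smooth muscle or pericyte-like cells, Kcnip1 was at 208 CPM, Kcnd3 at 201 CPM, Kcnn2 at 150 CPM and Kcnmb1, the smooth muscle beta subunit of BK, at 39.7 CPM. Kcnd3 was at 46.7 CPM in neuroendocrine-like and 1.67 CPM in other epithelial-like cells, and Kcnip1 at 50.2 CPM in neuroendocrine-like and 1.22 CPM in other epithelial-like cells. In fibroblast-like cells, Kcnt2 was at 518 CPM and Kcnn3 at 124 CPM, and in endothelial-like cells Kcna5 was at 52.3 CPM, against 0.150 CPM in mucous-like cells and no UMI in simple columnar-like cells. Ciliated-like cells were few, 56 in p63-KO and 23 in wild type, and shared a high Kcnmb2, at 97.0 CPM in p63-KO and 196 CPM in wild type. Kcnk12, a silent K2P subunit, was at 14.3 CPM in the p63-KO and 36.9 CPM in the wild-type ciliated-like cells, and Kcnh8 at 15.5 CPM in the p63-KO and 26.9 CPM in the wild-type ciliated-like cells.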

How the data were processed

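Single cells were profiled in 1 library of p63-KO and 1 of wild-type esophageal epithelium with 10x Genomics 3′ V2 chemistry, per the labels' protocols. How many embryos each library holds is not given in the labels. The authors deposited UMI counts per gene and barcode, made with Cell Ranger 7.1.0 on mm10, per the submitters' processing notes. Whether intronic reads were counted, and how strands were treated, is not given in the sources used here. Barcodes were kept from 500 detected genes and 1000 UMIs upwards if mitochondrial UMIs did not exceed 10%, and the highest doublet scores, 0.8% for each 1000 cells, were then removed (47 in p63-KO, 268 in wild type), so doublets may remain. Clustering used 2000 variable genes without the Kcn genes (30 components, 20 neighbours, Leiden), at resolution 1.0 for all cells together and 0.6 for the epithelial-like cells per library; clusters were assigned to classes from marker lists. The thresholds for naming were set after seeing the data, and a cluster whose 10 leading genes held more markers of another class than of its own stayed unnamed. The first unnamed p63-KO epithelial-like cluster (285 cells, median 71227 UMIs) was labelled G2 and mitosis and led by Ube2c, Cenpf and Birc5. It held 21486165 of the 72110921 UMIs summed for p63-KO epithelial-like cells. The second unnamed p63-KO epithelial-like cluster (201 cells) was led by genes that include Krt13 and Krt4.

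UMIs were summed per class. CPM intervals are exact Poisson, ratio intervals exact conditional binomial and shares exact Clopper-Pearson, and log2 ratios use CPM + 1. Genes were named if they reached 20 CPM and 20 UMIs in a named class, or were among the 5 highest or 5 lowest ratios of a comparison at 10 CPM or more, with at most 4 genes per other list and comparison. The members and lists were chosen with earlier results of these data known. Some genes and results are not reported here. The comparison was tested on simulated data. Gene positions are from GENCODE M21. Python 3.11.15, numpy 2.4.6, scipy 1.17.1, scikit-learn 1.9.0 and leidenalg 0.10.2 were used.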

Additional observations from a re-analysis of the deposited data

How the results depend on the processing

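No paired analysis was possible because there was 1 library per group. Counts of channel genes past 2-fold moved by over 1.5 times in these cases. For p63-KO over wild type, 42 were higher from 1 CPM, 10 from 20 CPM and 11 with the neuroendocrine-like, ionocyte-like and ciliated-like cells left out, where Kcnip3 turned to -0.15 on the log2 scale. For superficial squamous-like over basal-like cells, 1 higher became 0 with 5 CPM added or from 20 CPM, 5 from 1 CPM, 4 with the 50 most abundant genes left out, 3 in cells with Xist RNA only, 2 when thinned to 2000 UMIs, 2 with Kcn genes among the variable genes and 0 without cycling basal-like cells, and 5 lower became 3 with 5 CPM added, 15 from 1 CPM and 3 from 20 CPM. For suprabasal-like over basal-like cells, 5 were lower from 1 CPM, 4 when thinned and 1 higher from 20 CPM. For neuroendocrine-like cells, lower genes numbered 5 from 1 CPM, 1 from 20 CPM, 6 with every cell weighing equally, 6 in cells with Y-linked RNA only and 5 when thinned. For ionocyte-like cells, 12 were lower with 5 CPM added, 34 from 1 CPM, 6 from 20 CPM and 6 without neuroendocrine-like cells, and 10 were higher from 1 CPM. Medians of log2 ratios changed sign to 0.34 for the superficial contrast in cells with Xist RNA only, to -0.15 from 1 CPM, -0.17 without the 50 genes and -0.14 when thinned for the suprabasal contrast, and to 0.48 from 20 CPM and 0.67 without neuroendocrine-like cells for ionocyte-like cells. Single ratios changed sign for Kcne3 (-0.021, superficial contrast without cycling basal-like cells), for Kcnd2 (-0.015) and Kcnk16 (-0.10) in ionocyte-like cells when thinned, and without neuroendocrine-like cells for Kcnd3 (0.036), Kcnh3 (0.19) and Kcnh8 (0.76). Changes from other CPM limits follow from how many genes were measured; the cause of the others was not tested. Of 384 values of named genes for neuroendocrine-like cells under all settings, 377 kept their call and 0 changed sign. The calls kept were 289 of 312 for p63-KO over wild type, 276 of 322 for ionocyte-like cells, 46 of 52 for the superficial and 51 of 52 for the suprabasal contrast, with 1, 5, 1 and 0 changes of sign. Leaving out cycling basal-like cells, the second ionocyte-like subcluster or the neuroendocrine-like cells from the comparison was chosen after seeing the data. With every class from 1 library of each genotype, differences between animals cannot be told apart from the genotype, and genes under 5 CPM in both groups were compared only where a 1 CPM limit is named.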
